A study of Mus musculus with 8 samples.

Results

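The 8 genes described here encode proteins that carry human blood group antigens. They are Ackr1 (Duffy), Rhd (Rh), Rhag (Rh-associated glycoprotein), Kel (Kell), Ermap (Scianna), Icam4 (Landsteiner-Wiener), Aqp1 (Colton) and Cd44 (Indian). They were taken by symbol, and all 8 were among the 18790 named genes of the count files and passed the filter on low counts. They were read in sorted marrow cells. The marrow came from femurs of C57BL/6 mice given no treatment. All animals bore the Csf1r-EGFP transgene, in which the promoter of Csf1r, a receptor of monocytes and macrophages, drives a green fluorescent reporter. The CD11b+ population was positive for CD11b, F4/80 and VCAM1, negative for Ly6G and low for the reporter. The CD11b- population lacked CD11b and was positive for F4/80, VCAM1 and the reporter. Each had 4 biological replicates, the labels give no age, and the deposited design calls both kinds of cell "macrophages" in quotation marks. The series title speaks of non-macrophage cells bearing pieces of macrophages.

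Blood group antigens are inherited differences in the proteins and sugars of the red cell surface. Rh and its associated glycoprotein, which moves ammonia and related molecules, sit with the anion exchanger band 3 in a complex anchored to the membrane skeleton, and Kell is an endopeptidase held to the partner protein XK. Most of these proteins are made during red cell maturation in the marrow, where erythroblasts surround a macrophage. Some also occur elsewhere: the Duffy receptor and the water channel on endothelium, and CD44, the hyaluronan receptor, on most leukocytes.

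Total counts over named genes were 36517568 to 47844998 in CD11b+ libraries and 27337092 to 34996595 in CD11b- libraries, so the limit behind a 0 in a single library, 3 counts, was 0.0627 to 0.110 CPM (the count scaled to a common library total). These limits cover counting error only, as the reads carry no molecular identifiers. Of the erythroid markers 14 were measured, and their summed level was 840 to 1213 CPM in CD11b+ libraries and 27883 to 36690 CPM in CD11b- libraries. All 14 were called lower in CD11b+, where called means an adjusted p below 0.05 by edgeR's quasi-likelihood test with Benjamini-Hochberg adjustment over all genes tested. Neutrophil and primary granule markers, 13 in all, summed to 132634 to 153988 CPM in CD11b+ libraries and 654 to 6941 CPM in CD11b- libraries. Resident macrophage markers, 18 in all, summed to 1149 to 1199 CPM in CD11b+ and 688 to 1049 CPM in CD11b-, with 3 called higher and 2 lower of 17 tested. Of all genes tested 14.6% were called higher and 15.0% lower in CD11b+. The globin genes were not analysed here.

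The sequences before the annotated starts of these genes are shown first. Between the sorts 7 of the 8 genes moved together, and any part of these sequences in that was not tested. The letters AGATAA or TGATAA, forms of the site that GATA factors bind, were searched on either strand. Other forms of that site were not searched. In the 250 bases before the start these letters were found in 6 of 8 genes, and in 16.6% of 32817 promoters of the RefSeq table for GRCm38.p6. In the nearest 100 bases they were found in 5 of 8, all among the genes lower in CD11b+, and in 6.18% of promoters. That shorter window was chosen after the matches were seen. The printed stretches are chr4:134864436-134864535 (+ strand) for Rhd, chr17:40811049-40811148 (+ strand) for Rhag, chr6:41704326-41704425 (- strand) for Kel, chr4:119189996-119190095 (- strand) for Ermap, chr9:21029332-21029431 (+ strand) for Icam4 and chr2:102901666-102901765 (- strand) for Cd44, each ending 1 base before the start and read 5′ to 3′ along its gene. Capitals mark the GATA letters, and Cd44 is shown as the member that was higher in CD11b+. Its own match, 233 to 228 bases before the start, falls outside the printed stretch. Ackr1 and Aqp1, lower in CD11b+ and without the letters in the 250 bases, are not printed. A link between the letters and the direction was not tested, and stretches cut to this window cannot show one.
Rhd: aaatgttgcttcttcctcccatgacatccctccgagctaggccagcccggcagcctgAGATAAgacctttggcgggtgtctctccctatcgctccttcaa
Rhag: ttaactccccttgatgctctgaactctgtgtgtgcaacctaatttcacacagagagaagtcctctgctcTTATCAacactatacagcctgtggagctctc
Kel: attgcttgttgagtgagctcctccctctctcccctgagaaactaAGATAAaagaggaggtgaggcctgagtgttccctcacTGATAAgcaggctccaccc
Ermap: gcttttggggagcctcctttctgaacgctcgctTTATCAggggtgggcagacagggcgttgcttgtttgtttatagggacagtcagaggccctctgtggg
Icam4: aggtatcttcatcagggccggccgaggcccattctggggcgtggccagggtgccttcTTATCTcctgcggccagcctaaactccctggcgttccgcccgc
Cd44: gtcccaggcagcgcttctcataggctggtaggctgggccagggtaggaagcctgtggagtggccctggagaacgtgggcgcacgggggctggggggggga

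The matches lay 43 to 38 bases before the start in Rhd and in Icam4, 31 to 26 in Rhag and 67 to 62 in Ermap. Kel had a pair, at 56 to 51 and at 19 to 14 bases. The match of Cd44 was farther out, at 233 to 228 bases. Ackr1 and Aqp1 had none before the start, although Ackr1 held the letters after it. Over all 300 bases of the table, which run past the start, 7 of 8 genes held them, and 18.6% of promoters. The letters CCNCNCCC, which KLF factors such as KLF1 can bind, were found on either strand in Icam4, Aqp1 and Cd44, against 45.9% of promoters. The E box CANNTG, which reads alike on both strands, was found in Kel, Icam4 and Aqp1, against 66.2%. No match overlapped one of another kind in these windows, and a pair of the CCNCNCCC matches of Cd44 overlapped each other. In the GENCODE M21 annotation of the same build no exon lay in the 250-base windows of Rhd, Aqp1 and Cd44. Those of Rhag, Kel and Ermap touched exons of the gene's own transcripts, that of Icam4 also the antisense gene Gm47079 and that of Ackr1 also Cadm3. A match says only that these letters are present.

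**Figure D1:**
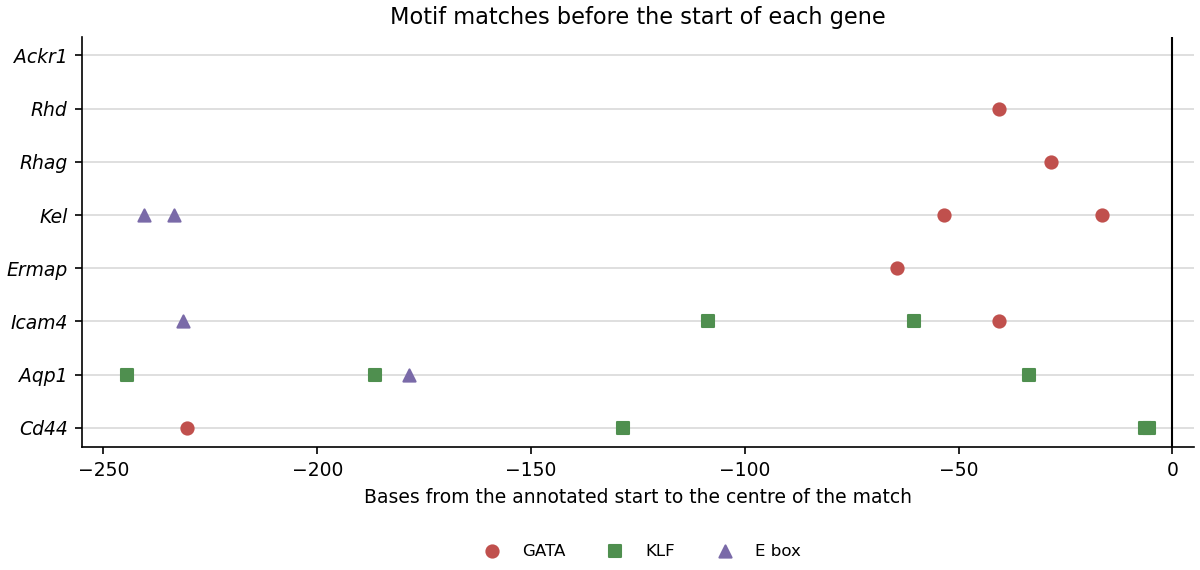
Matches to GATA (circles), KLF (squares) and E box (triangles) letters in the 250 bases before the annotated start of each gene, plotted by the distance of the match centre from the start in bases. GATA matches of Rhd, Rhag, Kel, Ermap and Icam4 lie within 67 bases of the start, and that of Cd44 lies 233 to 228 bases before it.

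Of the 8 genes, 7 were lower and Cd44 was higher in CD11b+. All 8 were called, as were 29.7% of the 11965 genes tested, with 15.0% called lower and 14.6% called higher in CD11b+. For each of the 8 the libraries of one population lay wholly to one side of the other, which 18.4% of genes tested did toward lower and 18.1% toward higher values in CD11b+. The 7 lower genes had a median log2 fold of -6.12, beside -0.01 over all genes tested. They took 102 to 264 CPM in sum in CD11b+ libraries and 10678 to 14736 CPM in CD11b- libraries, so that the CD11b+ mean was 1.37% of the CD11b- mean. In sorted bulk cells, fewer cells of a type and less RNA per cell cannot be told apart.

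**Figure D2:**
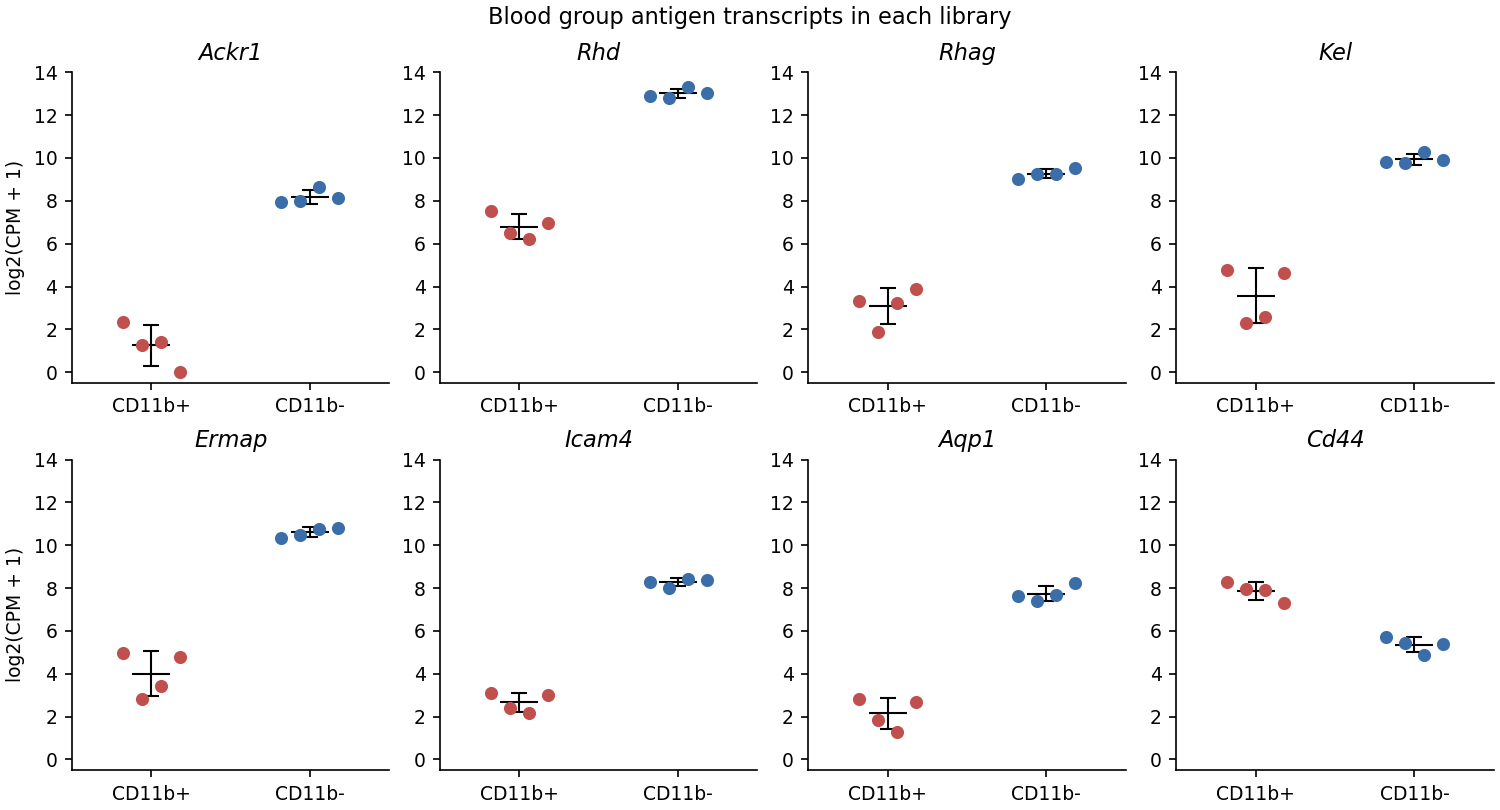
Level of each gene in each library as log2(CPM + 1), with CD11b+ libraries on the left and CD11b- libraries on the right of each panel. Points are single libraries in replicate order, the horizontal mark is the mean of 4 libraries on this scale and bars show its SD; 7 genes lie lower in CD11b+ and Cd44 lies higher.

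Both Rh genes were lower in CD11b+. Rhd, the mouse Rh polypeptide, was at 181, 88.8, 72.4 and 126 CPM in CD11b+ replicates 1 to 4, against 7701, 7110, 10187 and 8332 CPM in CD11b- replicates 1 to 4. Its highest CD11b+ library was thus far below its lowest CD11b- library, and its CD11b+ libraries still held 3462 to 6607 counts each. The fitted difference was 69.6-fold lower in CD11b+ (log2 -6.12, SE 0.36, edgeR adjusted p = 3.11e-06). Rhag, which Rh needs to reach the membrane in human red cells, was at 9.06, 2.69, 8.38 and 13.7 CPM in CD11b+, against 525, 603, 611 and 738 CPM in CD11b-. Replicate 4 was highest in either population. Rhag was 71.4-fold lower in CD11b+ (log2 -6.16, SE 0.47, edgeR adjusted p = 1.04e-05). Of the other Rh family genes Rhbg was not analysed here. Rhcg, an ammonia transporter best known from kidney, had 336 pooled counts in CD11b+ (0.31 to 4.14 CPM) and none in CD11b-. Set against 3 counts in all CD11b- libraries together, the limit used for a 0, its pooled level was 83.9-fold higher in CD11b+. That figure covers counting error only, not the spread between libraries, and is no lower limit of the fold. The fitted log2 fold of Rhcg had a 95% interval of 4.83 to 13.7 (edgeR adjusted p = 0.00959). With the replicate number as a block the call was lost (edgeR adjusted p = 0.0948).

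Kel, the Kell endopeptidase, was at 26.0, 3.98, 5.02 and 23.98 CPM in CD11b+ replicates 1 to 4, against 894, 857, 1241 and 957 CPM in CD11b-. CD11b+ replicates 1 and 4 stood well above replicates 2 and 3, with a 6.53-fold range, whereas the CD11b- libraries spanned 1.45-fold. It was 65.8-fold lower in CD11b+ (log2 -6.04, SE 0.69, edgeR adjusted p = 0.000127). Ermap, a butyrophilin-like protein of the erythroid membrane, was at 30.3, 6.01, 9.64 and 26.3 CPM in CD11b+, against 1284, 1430, 1755 and 1814 CPM in CD11b-. It had the same 2 CD11b+ libraries on top and was 85.0-fold lower in CD11b+ (log2 -6.41, SE 0.57, edgeR adjusted p = 2.59e-05). Relatives were measured as well. Among M13 peptidases, the family of Kel, 4 of 6 fell below the filter on low counts, and Ece1 and Ece2, endothelin-converting enzymes, were not called (edgeR adjusted p = 0.491 and 0.0961). Of 3 butyrophilin genes tested Btnl10 was 91.8-fold lower in CD11b+ (1.3 ± 0.75 CPM in CD11b+, against 121 ± 40.7 CPM in CD11b-, SD, n = 4 each; edgeR adjusted p = 1.57e-05). Btn1a1, the butyrophilin of milk fat, was at 0 in 3 CD11b+ libraries and at 0.79 CPM in CD11b+ replicate 4, against 5.63 to 39.1 CPM in CD11b- (edgeR adjusted p = 0.0151). Btnl9 was at 13.5 ± 3.38 CPM in CD11b+, against 1.67 ± 1.96 CPM in CD11b- and was not called (edgeR adjusted p = 0.109), while limma and DESeq2 called it higher (adjusted p = 0.00296 and 0.0247).

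Icam4, an adhesion protein through which erythroblasts bind integrins, was at 7.59, 4.36, 3.47 and 6.99 CPM in CD11b+ replicates 1 to 4, against 313, 254, 345 and 329 CPM in CD11b-. It varied least among the 8 genes in CD11b-, with a coefficient of variation of 12.7%. The difference was 54.1-fold lower in CD11b+ (log2 -5.76, SE 0.31, edgeR adjusted p = 2.23e-06). Its paralogs Icam1 and Icam2 were not called (edgeR adjusted p = 0.265 and 0.565), at 12.8 ± 4.24 and 29.9 ± 9.34 CPM in CD11b+ and 6.71 ± 4.58 and 25.6 ± 6 CPM in CD11b-. Among integrin subunits that bind ICAM proteins, Itga4 was 2.99-fold lower in CD11b+ (27.3 ± 9.44 CPM in CD11b+, against 84.2 ± 23.2 CPM in CD11b-, edgeR adjusted p = 0.00356). The leukocyte subunits Itgb2 and Itgal were 12.4-fold and 3.33-fold higher in CD11b+ (edgeR adjusted p = 6.8e-06 and 0.0136). Itgb1, at 164 ± 32.2 CPM in CD11b+, against 160 ± 17.4 CPM in CD11b-, was not called (edgeR adjusted p = 0.788).

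Ackr1, the Duffy receptor that binds many chemokines without signalling through G proteins, was at 4.05, 1.42, 1.69 and 0 CPM in CD11b+ replicates 1 to 4, against 244, 255, 393 and 281 CPM in CD11b-. CD11b+ replicate 4 had no count, which allows up to 0.0739 CPM, although it ranked first or second within CD11b+ for the other 6 lower genes. Ackr1 was 160-fold lower in CD11b+ (log2 -7.33, SE 0.97, edgeR adjusted p = 0.000317), and 268-fold lower without CD11b+ replicate 1. Exons of Ackr1 overlap those of Cadm3 on the same strand in GENCODE M21. Cadm3 had no count in CD11b+ and 1.42 to 3.91 CPM in CD11b-. The atypical receptors Ackr2, Ackr3 and Ackr4 fell below the filter on low counts. Of the chemokines that Ackr1 can bind, 3 were tested and Ccl5 was lower in CD11b+ (25.6 ± 12.5 CPM in CD11b+, against 96.5 ± 9.82 CPM in CD11b-, 3.66-fold, edgeR adjusted p = 0.00135). Pf4, the platelet chemokine, and Ccl2 were not called (edgeR adjusted p = 0.847 and 0.311).

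Aqp1, the water channel, was at 6.16, 2.59, 1.4 and 5.32 CPM in CD11b+ replicates 1 to 4, against 196, 169, 204 and 304 CPM in CD11b-. Replicate 4 was the highest CD11b- library by a margin, and the populations did not overlap. Aqp1 was 54.9-fold lower in CD11b+ (log2 -5.78, SE 0.5, edgeR adjusted p = 2.2e-05). Aqp9, an aquaglyceroporin that also carries glycerol, was 7.84-fold lower in CD11b+ (15.2 ± 7.29 CPM in CD11b+, against 121 ± 21.5 CPM in CD11b-, edgeR adjusted p = 0.000318), Aqp11 was not called (edgeR adjusted p = 0.984) and the other 5 aquaporins measured fell below the filter. Endothelial cells also make Aqp1 and Ackr1. Of 11 endothelial markers measured, 6 fell below the filter on low counts and 0 of the other 5 were called by edgeR (0 at an unadjusted p under 0.05, 0 called by limma and 0 by DESeq2). Their summed level was 37.9 to 74.4 CPM in CD11b+ and 37.9 to 87.6 CPM in CD11b-, carried mostly by Pecam1, which leukocytes share. Kdr was at 0 in all CD11b+ libraries and in 2 of 4 CD11b- libraries, and Cdh5 reached 5.28 CPM in CD11b- replicate 1 at most. Others, named after their values were seen, reached more in single CD11b- libraries. Plvap was at 12.7 CPM in replicate 4, Tek at 11.3 CPM in replicate 2 and Tie1 at 7.99 CPM in replicate 1. Egfl7 ran from 8.47 to 17.5 CPM in CD11b+ and from 5.71 to 14.1 CPM in CD11b-. Any endothelial part in Aqp1 and Ackr1 was not tested.

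Cd44 ran the other way. It was at 315, 247, 239 and 159 CPM in CD11b+ replicates 1 to 4, against 51.8, 42.5, 28.8 and 40.9 CPM in CD11b-. The lowest CD11b+ library was above every CD11b- library, and the difference was 6.10-fold higher in CD11b+ (log2 2.61, SE 0.24, edgeR adjusted p = 3.49e-05). The granule markers named above were also higher in CD11b+, at 132634, 152243, 147804 and 153988 CPM in sum in CD11b+ replicates 1 to 4, against 6941, 4577, 2291 and 654 CPM in CD11b-. Within CD11b+, replicate 4 was highest in their sum and lowest in Cd44. Within CD11b-, replicates 1 and 2 were the highest in their sum and in Cd44, while replicate 4 was lowest in their sum and replicate 3 in Cd44. Leaving out CD11b- replicates 1 and 2, which were highest in the granule markers and were chosen after the data were seen, Cd44 was 7.07-fold higher in CD11b+ (edgeR adjusted p = 0.000667). Monocyte markers, 7 in all, were higher in CD11b+ in sum as well, at 463 to 737 CPM in CD11b+, against 68.6 to 96.4 CPM in CD11b-, and the part of either list in the Cd44 difference was not tested. Of 9 tested partners of CD44, 2 were higher, 3 lower and 4 not called in CD11b+. Beside them, 14.6% of all genes tested were called higher and 15.0% lower. Higher were Msn, the moesin that links CD44 to actin (1.88-fold, 1208 ± 147 CPM in CD11b+, against 668 ± 165 CPM in CD11b-, edgeR adjusted p = 0.00433), and the granule proteoglycan Srgn (4.57-fold, edgeR adjusted p = 0.000117). Lower were the hyaluronan receptor of dividing cells Hmmr (3.94-fold, edgeR adjusted p = 1.16e-05), Cd74 (2.13-fold, edgeR adjusted p = 0.0217) and the hyaluronidase Hyal2 (2.21-fold, edgeR adjusted p = 0.0391). The Hyal2 call was lost in 6 of 8 fits that each left out 1 library and the Cd74 call without CD11b+ replicate 2 or CD11b- replicate 4 (edgeR adjusted p = 0.0582 and 0.0516).

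**Figure D3:**
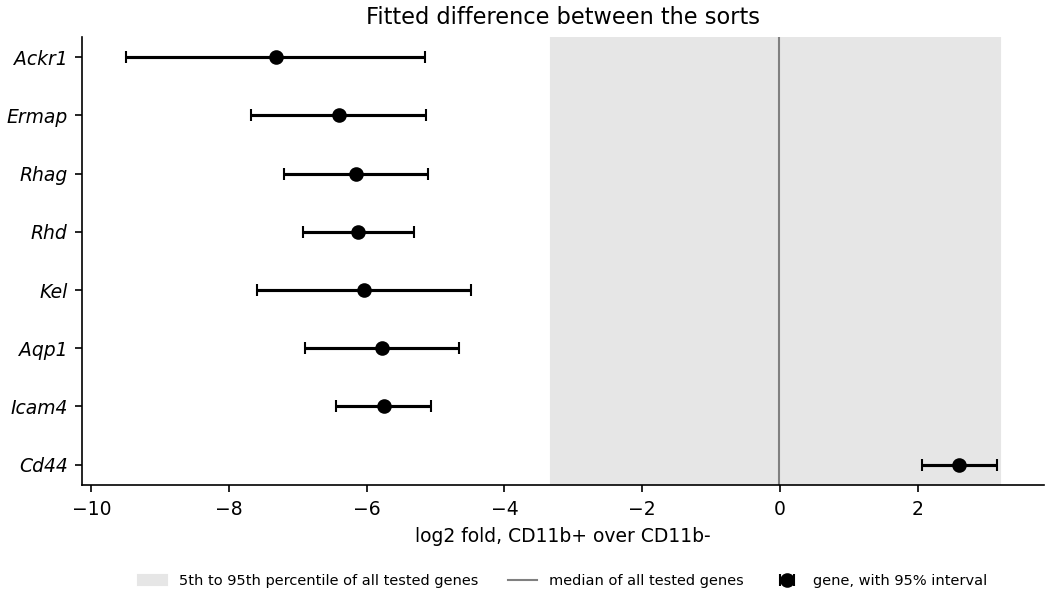
Fitted log2 fold of CD11b+ over CD11b- for each gene, with its 95% interval from the quasi-likelihood fit over 8 libraries. The grey band spans the 5th to 95th percentile of all 11965 genes tested and the line their median; the 7 lower genes lie left of the band and Cd44 lies inside it.

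The fitted folds of the 7 lower genes were close to each other. The fitted folds of the 7 lower genes ran from log2 -7.33 for Ackr1 to log2 -5.76 for Icam4. Their 95% intervals overlapped, with those of Ackr1 (-9.50 to -5.15) and Icam4 (-6.45 to -5.06) at the ends. Overlap of such wide intervals does not show that the folds are alike. Among genes tested, 2.68% were called and at least 16-fold lower in CD11b+. All 7 had their upper 95% bound below that fold, the nearest being Kel at log2 -4.49. Cd44, with an interval of 2.06 to 3.15, ranked 825 from the top of 11965 genes.

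Levels can be set side by side between genes only per length, here as CPM per kilobase of exon length in GENCODE M21. In CD11b- libraries Rhd stood at 5227 ± 836 CPM per kilobase (SD, n = 4) and ranked 2 of 18088 genes with a length, globins not being analysed here. Kel (356 ± 62.8), Ermap (297 ± 48.1), Icam4 (280 ± 35.6) and Rhag (265 ± 37.7) followed in CPM per kilobase. Neighbours in that order did not differ beyond their spread between libraries, although Kel stood above Ermap within each CD11b- library. Ackr1 (209 ± 48.7) came next, within the spread of Rhag, Aqp1 (83.1 ± 22.5) stood below it beyond the spread, and Cd44 was last at 6.05 ± 1.4 CPM per kilobase. In CD11b+ libraries Rhd led again at 73.4 ± 30.2 CPM per kilobase, followed by Cd44 at 35.4 ± 9.46. Kel (5.32 ± 4.28), Icam4 (5.05 ± 1.8), Rhag (3.62 ± 1.93), Ermap (3.41 ± 2.27), Aqp1 (1.47 ± 0.854) and Ackr1 (1.28 ± 1.2) followed. No neighbours among these 6 differed beyond their spread between libraries, although Ermap stood above Aqp1 within each CD11b+ library. Of the length-scaled sum over all 8 genes Rhd made up 55.9% ± 5.32 in CD11b+ and 77.7% ± 1.17 in CD11b-, and Cd44 made up 29.1% ± 9.52 in CD11b+ and 0.0933% ± 0.031 in CD11b- (SD, n = 4).

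Counts relative to Rhd within each library show how far the genes kept their proportions. Kel was at 14.4%, 4.48%, 6.93% and 19.1% of the Rhd count in CD11b+ replicates 1 to 4, and at 11.6%, 12.0%, 12.2% and 11.5% in CD11b-. Its proportion was nearly the same in the 4 CD11b- libraries, and the CD11b+ libraries lay on either side of it. Rhag showed 3.03% to 11.6% in CD11b+ and 6.00% to 8.86% in CD11b-, Ermap 6.77% to 20.95% in CD11b+ and 16.7% to 21.8% in CD11b-, and Aqp1 1.94% to 4.23% in CD11b+ and 2.00% to 3.65% in CD11b-, so these ranges overlapped. Icam4 was above its CD11b- range in all CD11b+ libraries, at 4.19% to 5.56% in CD11b+ and 3.38% to 4.07% in CD11b-. That side of Rhd was common, as 85.7% of genes tested had all CD11b+ ratios above all CD11b- ratios. Ackr1 was below it, at 0% to 2.34% in CD11b+ and 3.16% to 3.86% in CD11b-, as were 0.393% of genes tested.

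**Figure D4:**
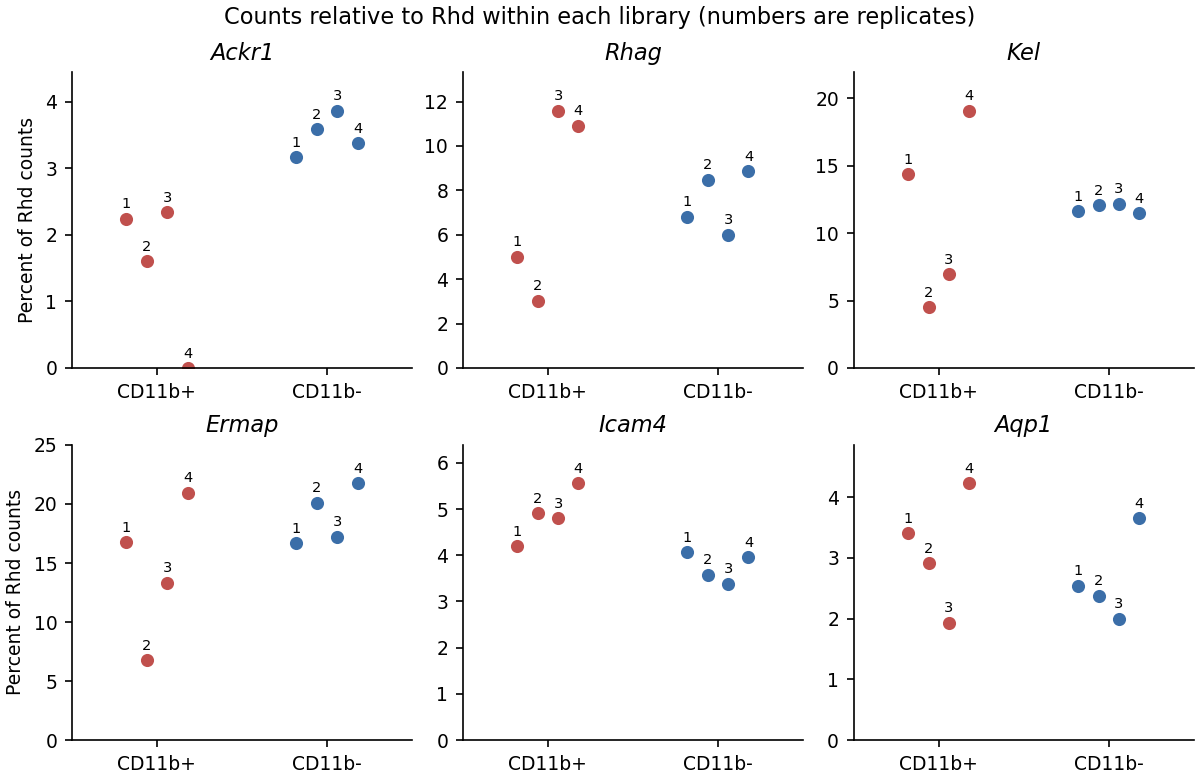
Counts of 6 genes as a percentage of the Rhd count in the same library, with CD11b+ on the left and CD11b- on the right; each point is a library and its number the replicate. CD11b- points of Kel lie between 11.5% and 12.2%, CD11b+ points between 4.48% and 19.1%, and the populations do not overlap for Ackr1 and Icam4.

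Variation between libraries was wider in CD11b+ than in CD11b- for the 7 lower genes, with coefficients of variation of 35.6% to 93.8% in CD11b+ and 12.7% to 27.1% in CD11b-. CD11b+ replicates 1 and 4 were above replicates 2 and 3 in 6 of the 7, all but Ackr1. Among 14 erythroid markers the same was seen in 6, Klf1 and Car2 among them, at 79.5, 20.3, 16.3 and 51.1 CPM for Klf1 in CD11b+ replicates 1 to 4. The erythroid markers showed it in their sum, at 1213, 898, 840 and 1194 CPM in CD11b+ replicates 1 to 4. Megakaryocyte and platelet markers did too, at 90.8, 51.3, 51.8 and 76.2 CPM in sum. Sums of endothelial, resident macrophage, granule, monocyte, stem and progenitor, and stroma markers did not. Markers of B cell precursors, 10 in all, also showed it in their sum, at 116, 53.2, 70.5 and 129 CPM in CD11b+ replicates 1 to 4, against 1138 to 2288 CPM in CD11b-. All 8 of them that were tested were called lower in CD11b+, beside 15.0% of all genes tested. Their median log2 fold was -5.78, and their part in the results for the 7 genes was not tested. Slc4a1, the anion exchanger band 3, had another order, at 85.6, 96.5, 48.03 and 55.7 CPM. These orders are a description of 4 libraries, and what moves them was not tested. The share of all genes that show such an order was not counted.

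The rest of the blood group proteins were read from a list of 25 other carriers, of which 21 were tested. In CD11b+ 15 were lower, 2 higher and 4 not called, with a median log2 fold of -3.81. Over all genes tested 15.0% were called lower and 14.6% higher, with a median of -0.01. Lower were Bsg, which carries the Ok antigen (8.83-fold, 352 ± 24.4 CPM in CD11b+, against 3187 ± 232 CPM in CD11b-, edgeR adjusted p = 1.39e-06), and Slc4a1, which carries the Diego antigens (40.0-fold, 71.4 ± 23.3 CPM in CD11b+, against 2930 ± 670 CPM in CD11b-, edgeR adjusted p = 3.88e-06). Also lower, and named after their values were seen, were the urea transporter Slc14a1 of the Kidd system (30.5-fold, 79.0-fold without CD11b+ replicate 1) and Xk, the partner of Kell (4.16-fold). Xk fell less than Kel, with 95% intervals of the log2 fold that do not overlap (-2.54 to -1.58 for Xk and -7.59 to -4.49 for Kel). Higher were Emp3, the carrier of the MAM antigen (5.06-fold, 273 ± 23.9 CPM in CD11b+, against 55.5 ± 2.41 CPM in CD11b-, edgeR adjusted p = 2.31e-06), and the transporter Abcc4 of the PEL antigen (7.87-fold, 14.3-fold without CD11b- replicate 2, edgeR adjusted p = 0.00588). Cd151, Slc44a2, Abcc1 and Piezo1 were not called (edgeR adjusted p = 0.9, 0.623, 0.115 and 0.618), while limma and DESeq2 called Abcc1 higher. Blood group sugars are built by enzymes that many cells share. Of 6 such genes measured 3 were tested and 0 called by edgeR (1 at an unadjusted p under 0.05, 1 called by limma and 0 by DESeq2), with Gcnt2, which branches the I antigen, at 25 ± 3.74 CPM in CD11b+, against 8.21 ± 5.19 CPM in CD11b- (edgeR adjusted p = 0.115, and 0.0210 without CD11b- replicate 4).

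**Figure D5:**
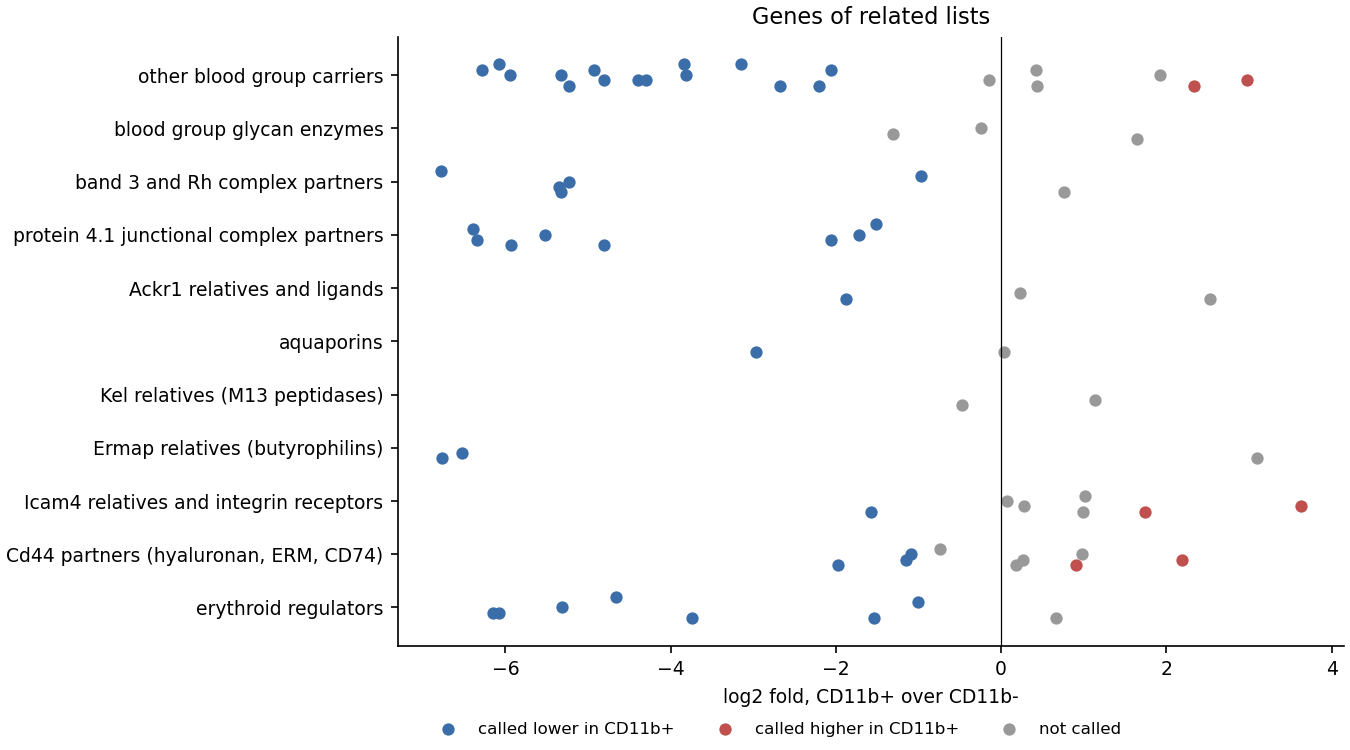
Log2 fold of CD11b+ over CD11b- for each tested gene of the related lists, 1 point a gene, coloured by its edgeR call; the vertical line marks no difference. Rh family relatives are left out, because Rhcg had no count in CD11b-. Of other carriers 15 are called lower and 2 higher, and of the partners of the skeletal junction all 8 are called lower.

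Transcripts of proteins that hold the antigens in the membrane were read from a pair of lists. Of 6 tested partners of the band 3 and Rh complex 5 were lower in CD11b+ and 1 was not called, with a median log2 fold of -5.28. Cd47, which associates with the Rh complex in human red cells and is found on most cells, was lower by 1.97-fold (1019 ± 153 CPM in CD11b+, against 2055 ± 259 CPM in CD11b-, edgeR adjusted p = 0.00181). Ank1, the red cell ankyrin, was 40.8-fold lower (edgeR adjusted p = 0.00385; 71.9-fold without CD11b+ replicate 1). The glucose transporter Slc2a4 was 110-fold lower (edgeR adjusted p = 0.00326; 658-fold without CD11b+ replicate 2), and Slc2a1 was not called (edgeR adjusted p = 0.489). All 8 tested partners of the junction that ties glycophorin C, XK and Kell to the spectrin skeleton were lower, with a median log2 fold of -5.16. For both lists the share called lower over all genes tested was 15.0%, with a median log2 fold of -0.01. Gypc, the Gerbich carrier, was 28.01-fold lower (edgeR adjusted p = 3.26e-06). Some genes stand in more than 1 of these lists.

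Of 8 erythroid regulators 7 were lower in CD11b+ and Ldb1 was not called (edgeR adjusted p = 0.0654), with a median log2 fold of -4.2. The share of all genes tested that were called lower was 15.0%. Klf1, the KLF factor of red cells, was 71.1-fold lower (41.8 ± 29.5 CPM in CD11b+, against 3046 ± 404 CPM in CD11b-, edgeR adjusted p = 3.06e-05), close to the folds of Rhag and Rhd. Gata1, the GATA factor of erythroid and megakaryocytic cells and named after its values were seen, was lower by 13.4-fold (52.7 ± 14.7 CPM in CD11b+, against 724 ± 118 CPM in CD11b-, edgeR adjusted p = 5.74e-06). Nfe2 was 2.01-fold lower (edgeR adjusted p = 0.0027).

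For each of the 8 genes the pair of genes with the most similar profile was found, as the root mean square difference of log2(CPM + 1) over the 8 libraries after centring each gene on its mean, among 11186 tested genes with a standard symbol. Rhd was nearest to Ctse, a protease (0.23), and to Ppp1r15a, a phosphatase regulator (0.25). Ppp1r15a was also among the nearest of Icam4 (0.28) and Aqp1 (0.24), Ctse of Aqp1 (0.31) and the carbonic anhydrase Car2 of Icam4 (0.27). Kel and Ermap shared their nearest genes, Klf1 (0.28 and 0.32) and Nrip3 (0.21 and 0.41). Rhag was nearest to Nxpe2 (0.33) and to the pre-B cell gene Vpreb3 (0.41), and Ackr1 to the membrane skeleton gene Dmtn (0.47) and to the claudin Cldn13 (0.64). Cd44 was nearest to Msrb2, a methionine sulfoxide reductase (0.21), and to Serpina11 (0.23), which had no count in CD11b-. With a pseudocount of 0.1 in place of 1, 9 of these 16 pairings were kept. Lost were Dmtn and Cldn13 for Ackr1, Vpreb3 for Rhag, Nrip3 for Kel and for Ermap, Car2 for Icam4 and Serpina11 for Cd44. The difference between the populations dominates these distances.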

How the data were processed

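RNA of the 8 sorted samples was made into SmartSeq2 libraries, per the labels' protocols, a method that does not mark strand. The authors deposited whole-number counts per gene symbol for each library, in files whose names say FPKM, and a table of CPM. Each library's counts divided by its total gave the deposited CPM back within 0.0005. The submitters' processing notes name mm9 as build and TopHat2, HTSeq (version 0.10.0) and DESeq2 as tools, without roles. Which annotation was counted is not given in the sources used here. Of 18817 rows 27 carry numbers in place of symbols (0.205% to 0.514% of counts) and were left out of totals and tests, so CPM here is scaled to the total of named genes.

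Counts were tested with edgeR 4.0.16 (R 4.3.3): TMM scaling, filterByExpr defaults (minimum count 10, minimum total 15), quasi-likelihood test, no covariate, Benjamini-Hochberg adjustment over 11965 genes, folds CD11b+ over CD11b- with a prior count of 0.125, standard errors worked back from F. The code was tested on simulated counts. The p-values measure the spread between samples that the design calls biological replicates. Exon lengths came from GENCODE M21 (18088 of 18790 symbols, 96.3%), on another build than mm9, and promoters of all 8 genes from RefSeq, GRCm38.p6; no coordinate of the files was used. Named were the 8 genes, the nearest profiles and the 2 most abundant tested genes of each related list. Also named were called genes where 5 or fewer were called in a direction. Other genes, among them several not called as well as Kdr and Cdh5, fall outside this rule, and not all are marked. Some genes that the rule names are not reported here. The genes and lists were chosen with earlier results of these data known. Alternatives were DESeq2 1.42.0 (81 genes without an adjusted p), limma 3.58.1 on log2(CPM + 1), RLE or no scaling, no filter or a CPM of 10 in 4 libraries, a prior count of 2, the replicate block and leaving out each library; leaving out 2 CD11b- libraries was added after seeing the data. A planned comparison of protein sequences was not run.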

Additional observations from a re-analysis of the deposited data

How the results depend on the processing

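Each of the 8 genes kept its direction and its call under all 17 alternatives run for it, 136 comparisons in all. Folds lower in CD11b+ ranged from 119 to 268 for Ackr1 and from 44.8 to 109 for the other 6 lower genes, and Cd44 was 5.52-fold to 7.07-fold higher. Adjusted p of a member was at most 0.0032 (Ackr1 with the replicate block). Called genes numbered 3549 in the edgeR fit, 4247 with DESeq2, 4485 with limma, 3195 with the replicate block and 3035 to 3418 with 1 library left out in turn. Called genes of the related lists numbered 46, and 44 to 50 over the alternatives. Deviations of same-numbered libraries from their group means were weakly correlated (0.0197 to 0.0643 over genes), and those of other pairs ran from -0.0537 to 0.0285. For each CD11b- library the same-numbered CD11b+ library had the highest correlation. Read from the other side this did not hold throughout. CD11b+ replicate 1 correlated more with CD11b- replicate 2 (0.0241) than with replicate 1 (0.0204). CD11b+ replicate 3 correlated more with CD11b- replicate 4 (0.0285) than with replicate 3 (0.0197). A weak pairing by number is possible but was not settled. The labels' numbers were not taken as pairs in the main fit, and the replicate block was run as an alternative. Among related genes the replicate block ended the call of Rhcg alone. Of the nearest profiles 9 of 16 pairings were kept at a pseudocount of 0.1. Called Rh relatives numbered 0 in place of 1 with the replicate block and with a CPM of 10 in 4 libraries, where Rhcg was not tested, and called butyrophilins 1 in place of 2 with that filter. Called glycan enzymes numbered 1 in place of 0 with limma and without CD11b- replicate 4, and called Ackr1 relatives and ligands 2 in place of 1 with limma. The Ackr1 fold moved over 1.5 times without CD11b+ replicate 1, as did folds of some related genes with 1 library left out, and calls of Hyal2 and Cd74 were lost in some of those fits. Beyond the genes left untested, the causes were not tested. Levels near 1 CPM in CD11b+, as for Ackr1, rest on 148 counts or fewer in a library.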
